A study of Penicillium oxalicum with 18 samples.

Results

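The genotype by sugar interaction asks, gene by gene, whether mycelium of Penicillium oxalicum without nag3 changed its transcripts on N-acetylglucosamine (GlcNAc) in another way than the wild type did. It was measured in 12 of the 18 libraries of the series, 3 in each of 4 groups: the nag3 deletion strain on 2% GlcNAc, the wild-type strain 114-2 on 2% GlcNAc, the nag3 deletion strain on 2% glucose and strain 114-2 on 2% glucose. Every culture of both strains had first grown for 24 h at 30 °C on 2% glucose and then spent 24 h in its second medium. The labels do not say how the deletion was made, whether it was 1 transformant, or whether the 3 replicates of a group were separate cultures, so the p-values here speak only of the spread among these libraries, and that spread may be technical.

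Penicillium oxalicum is a filamentous fungus that secretes cellulases. GlcNAc is the sugar unit of chitin, a polymer of fungal cell walls, and fungi that grow on it take it up, phosphorylate it, and remove its acetyl and amino groups before it enters glycolysis. Glucose is a preferred sugar and represses many genes for the use of other carbon sources. In bulk mycelium, a lower level cannot be told apart from fewer cells of a kind, such as conidiating hyphae, with the same RNA in each.

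Levels are FPKM, fragments per gene scaled by gene length and by mapped fragments, as deposited. A response is the mean of log2(FPKM + 1) on GlcNAc minus that on glucose within a genotype, and the interaction is the response of the deletion minus the response of the wild type. The test took in 8290 of 9261 identifiers, those that reached 1 FPKM in 3 or more of the 12 libraries. limma supplied the test, two-sided, with p-values adjusted by the Benjamini-Hochberg method over those 8290 genes, and a call needed both an adjusted p under 0.05 and a log2 difference of 1 or more in size. The words induced, repressed, rose, fell, higher and lower are used for called differences only. The 2 responses that enter an interaction share no library.

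FPKM sums of the 12 libraries ran from 920824 to 1083828, and replicates of a group correlated across genes at 0.950 to 0.984 (Pearson, log2 scale). Between 854 and 943 identifiers per library were listed at 0. The table pairs no identifier with a gene name, so nag3 was not checked by name, and 0 genes had at least 5 FPKM in all 6 wild-type and under 1 FPKM in all 6 deletion libraries. Of the 2140 genes called below, 22 held a library listed at 0 beside a library of the same group with at least 10 FPKM. A whole group was listed at 0 for 185 of them. Over all 8290 genes tested these counts were 132 and 393.

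The response to GlcNAc differed between the genotypes for many genes. The interaction was called for 2140 genes, 25.8% of those tested: 1249 were higher (15.1%) and 891 were lower (10.7%). By the adjusted p alone, at any size, 2277 were higher (27.5%) and 1418 were lower (17.1%), together 44.6%. The absolute log2 interaction of the 2140 called genes had a median of 1.65. Among them 406 higher and 385 lower genes reached 2, while 32 and 44 reached 5. The median interaction over all 8290 genes was 0.17, so the balance of directions depends on scaling. Median-ratio scaling set that median to 0.002 and gave 968 higher and 1082 lower genes, a share higher of 47.2% against 58.4%.

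In the deletion 1264 genes rose and 1274 fell on GlcNAc (15.2% and 15.4% of those tested, together 30.6%), and in the wild type 940 rose and 1227 fell (11.3% and 14.8%, together 26.1%). Of the genes that rose, 510 were shared, 40.3% of the deletion's and 54.3% of the wild type's. Of those that fell, 677 were shared, 53.1% of the deletion's and 55.2% of the wild type's. Even where both genotypes responded in the same direction, the size often differed: the interaction was called for 34.5% of the shared rising genes and 33.7% of the shared falling genes.

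Each called interaction was placed by which responses were called. Responses gained in the deletion were the most numerous, with 416 gained inductions and 342 gained repressions, 758 in all. Responses lost in the deletion came to 476, with 192 lost inductions and 284 lost repressions. Which direction was more numerous depends on scaling: median-ratio scaling gave 315 gained inductions and 414 gained repressions, and 246 lost inductions and 231 lost repressions. Quantile normalization gave 353 and 402 gained, and 248 and 233 lost. The direction was reversed for 102 genes, of which 53 were induced in the wild type and repressed in the deletion and 49 went the other way. A further 404 genes kept the direction with a changed size: 155 stronger and 21 weaker inductions, and 166 stronger and 62 weaker repressions. Weaker inductions numbered 37 without wild-type glucose replicate 3, and quantile normalization gave 178 stronger inductions and 157 stronger repressions. The remaining 400 had a called interaction but fell in no class above.

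**Figure D1:**
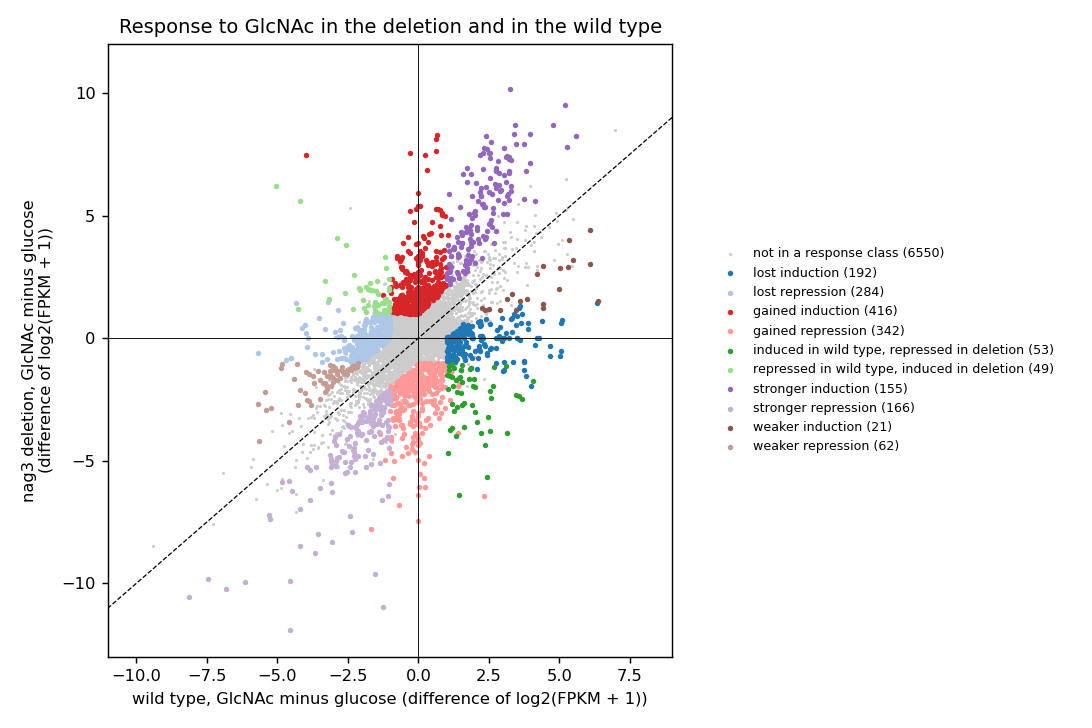
Response to GlcNAc in the nag3 deletion (vertical axis) against that in the wild type (horizontal axis), both as GlcNAc minus glucose on the log2(FPKM + 1) scale, 1 point per gene for 8290 genes, coloured by class. The dashed line marks equal responses; the 192 lost inductions lie along the horizontal axis, the 416 gained inductions along the vertical axis, and the 102 reversed genes at the upper left and lower right.

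Most of these losses left a response near 0. Among lost inductions the median response was -0.02 in the deletion and 1.65 in the wild type, and among lost repressions it was -0.03 in the deletion and -1.61 in the wild type. For gained inductions the medians were 1.66 in the deletion and 0.00 in the wild type, and for gained repressions -1.97 in the deletion and -0.04 in the wild type. Requiring the response of the other genotype to lie under 0.5 in size left 299 of the 476 lost and 483 of the 758 gained responses. For most of the lost and gained genes named next, the uncalled response exceeded 0.5 in size. In the deletion it was -1.96 for PDE_00449, -0.71 for PDE_06444, 1.44 for PDE_02787 and -0.60 for PDE_04964. In the wild type it was -3.97 for PDE_01100, 2.34 for PDE_02095, -0.29 for PDE_06899 and near 0 for PDE_01384.

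The 2 named lost inductions were transcripts that, of the 4 groups, only the wild type on GlcNAc held at a high level in all its libraries. PDE_00449 was listed at 0 in all 3 deletion libraries on GlcNAc, against 118, 93.2 and 105 FPKM in the wild type on GlcNAc. Its glucose libraries held 5.14, 0 and 8.56 FPKM in the deletion and 0, 7.81 and 32.6 FPKM in the wild type. The wild-type libraries on GlcNAc stood above all 9 others, and those on glucose overlapped between genotypes. The interaction was -5.95 (SE 1.56, adjusted p = 0.0104 by limma), a size that the offset of 1 FPKM sets in part because a group is at 0.

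PDE_06444 was also listed at 0 in the 3 deletion libraries on GlcNAc, against 149, 128 and 118 FPKM in the wild type on GlcNAc. On glucose only 1 library of each genotype was above 0, at 3.38 FPKM in the deletion and 65.0 FPKM in the wild type. Its interaction of -5.74 (SE 1.87, limma adjusted p = 0.0284) missed the threshold without any 1 of 8 libraries (adjusted p 0.0511 to 0.0674): deletion glucose replicate 1, wild-type glucose replicate 1 or 2, deletion GlcNAc replicate 1 or 2, or wild-type GlcNAc replicate 1, 2 or 3.

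The named lost repressions were on at glucose in both genotypes and stayed on without nag3. PDE_04964 had 85.4, 90.7 and 151 FPKM in the deletion on GlcNAc, against 9.64, 0 and 0 FPKM in the wild type on GlcNAc. Its glucose libraries held 214, 114 and 167 FPKM in the deletion and 100.7, 126 and 113 FPKM in the wild type. The wild-type libraries on GlcNAc lay below all 9 others (interaction 5.10, SE 1.049, limma adjusted p = 0.00276). PDE_02787 was listed at 0 in all 3 wild-type libraries on GlcNAc and had 121, 79.0 and 270 FPKM in the deletion there (interaction 5.77, SE 1.19, limma adjusted p = 0.00282). Its glucose libraries overlapped between genotypes, at 77.1, 21.5 and 73.9 FPKM in the deletion and 54.2, 32.5 and 3.40 FPKM in the wild type.

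Among gained inductions, PDE_06899 was close to silent everywhere but in the deletion on GlcNAc. It had 401, 413 and 282 FPKM there, against 0.34, 0.60 and 0.68 FPKM in the wild type on GlcNAc. Its glucose libraries held 1.22, 0.74 and 0.81 FPKM in the deletion and 0.75, 0.65 and 1.27 FPKM in the wild type. On bran and cellulose, in libraries the interaction did not use, it averaged 0.440 ± 0.0624 FPKM in the deletion and 0.353 ± 0.133 FPKM in the wild type (SD, n = 3 each). The interaction of 7.85 (SE 0.27, limma adjusted p = 7.22e-08) lay between 7.71 and 8.03 whichever library was left out. PDE_01100 reached 604, 827 and 1007 FPKM in the deletion on GlcNAc, against 0, 55.7 and 0 FPKM in the wild type on GlcNAc. Its glucose libraries ranged from 0 to 89.6 FPKM in the deletion and from 19.0 to 105 FPKM in the wild type, so the interaction of 11.44 had an SE of 2.64 (limma adjusted p = 0.00522).

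Both named gained repressions were lower on GlcNAc in the deletion than in the wild type. PDE_01384 was listed at 0 in the 3 deletion libraries on GlcNAc, against 22.9, 26.2 and 20.3 FPKM in the wild type on GlcNAc. Its glucose libraries held 131, 211 and 197 FPKM in the deletion, above the 51.8, 22.8 and 10.03 FPKM of the wild type. The interaction was -7.47 (SE 0.61, limma adjusted p = 8.21e-06). PDE_02095 had 0, 0 and 124 FPKM in the deletion on GlcNAc, against 1739, 1985 and 2583 FPKM in the wild type there, and it was present on glucose in both genotypes, at 515, 391 and 417 FPKM in the deletion and 296, 310 and 748 FPKM in the wild type. Its interaction of -8.79 had an SE of 2.07 (limma adjusted p = 0.00579) and lay between -11.12 and -7.63 whichever library was left out. Its wild-type response of 2.34 was not called (limma adjusted p = 0.194), although the wild-type libraries did not overlap between the sugars. The class of PDE_02095 thus rests on an uncalled response, and its values also allow a reversal.

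Reversals include PDE_07106. It fell on GlcNAc in the deletion, to 114, 86.1 and 166 FPKM, against 8454, 3371 and 7746 FPKM in the deletion on glucose. In the wild type it rose, with 11828, 11504 and 14708 FPKM on GlcNAc against 2544, 1868 and 2640 FPKM on glucose. The genotypes did not overlap on either sugar, nor the sugars in either genotype, and the order of the genotypes on glucose was the opposite of that on GlcNAc. The interaction was -8.11 (SE 0.49, limma adjusted p = 9.92e-07; -8.53 to -7.87 when 1 library was left out). On bran and cellulose the genotypes were close, at 714 ± 63.6 FPKM in the deletion and 612 ± 90.4 FPKM in the wild type (SD, n = 3 each; limma adjusted p = 0.464).

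PDE_06443 reversed in the same way. It had 0, 0 and 2.66 FPKM in the deletion on GlcNAc and 725, 673 and 1029 FPKM in the wild type on GlcNAc. On glucose the values were 170, 105 and 121 FPKM in the deletion and 340, 206 and 359 FPKM in the wild type (interaction -7.84, SE 0.64, limma adjusted p = 8.13e-06). Its number is next to that of PDE_06444, the lost induction above.

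In the opposite direction, PDE_07475 had 1025, 1040 and 1255 FPKM in the deletion on GlcNAc, against 0.82, 3.06 and 1.46 FPKM in the wild type on GlcNAc. On glucose the genotypes overlapped, with 18.7, 21.8 and 25.2 FPKM in the deletion and 71.8, 82.8 and 17.8 FPKM in the wild type. The interaction was 9.81 (SE 0.69, limma adjusted p = 2.98e-06). PDE_00192 traded places between the sugars: it had 162, 140 and 109 FPKM in the deletion on GlcNAc against 10.5, 1.80 and 0 FPKM in the wild type on GlcNAc, and 0, 5.38 and 0 FPKM in the deletion on glucose against 74.3, 120 and 125 FPKM in the wild type on glucose. Its interaction was 11.24 (SE 1.21, limma adjusted p = 4.96e-05).

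Of the genes that kept direction with a changed size, the 2 of greatest interaction were stronger repressions. PDE_06802 had 3.78, 0 and 2.32 FPKM in the deletion on GlcNAc, against 995, 858 and 1470 FPKM in the wild type on GlcNAc. Its glucose libraries held 6202, 3723 and 5458 FPKM in the deletion and 2631, 2682 and 2340 FPKM in the wild type (interaction -9.72, SE 0.67, limma adjusted p = 2.44e-06). PDE_07282 was listed at 0 in the deletion on GlcNAc and had 198, 218 and 252 FPKM in the wild type on GlcNAc, while the glucose libraries overlapped between genotypes (interaction -8.05, SE 0.41, limma adjusted p = 3.4e-07).

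**Figure D2:**
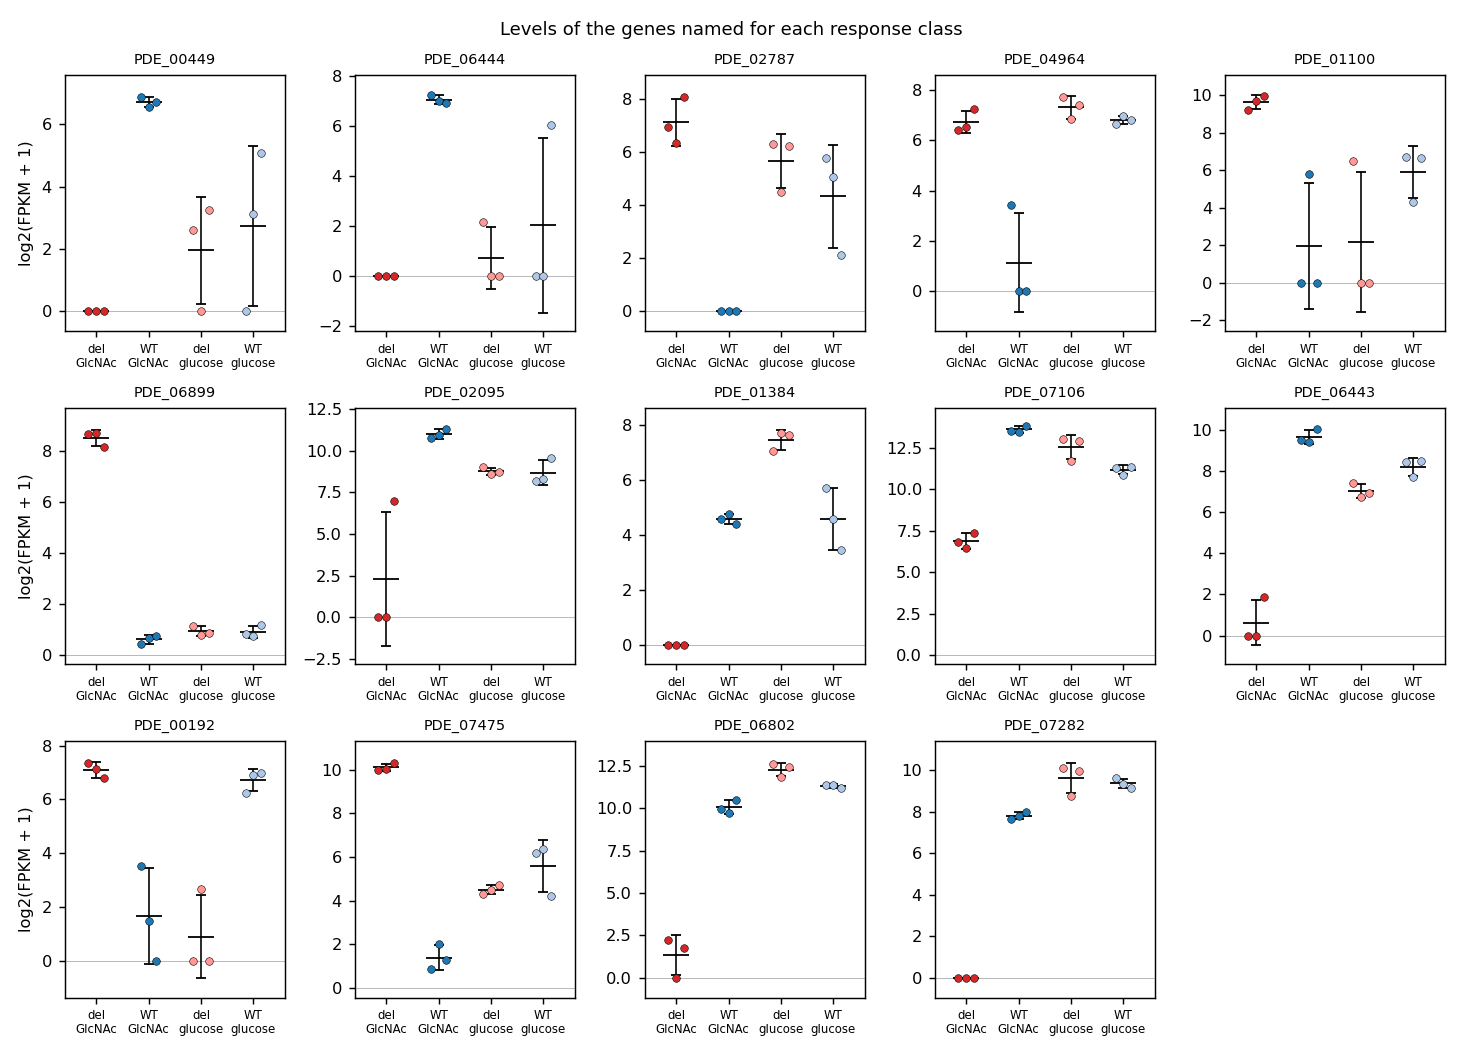
Levels of the 14 genes named for the response classes in the 12 libraries, as log2(FPKM + 1); points are libraries, bars the mean and SD of 3, with the deletion (del) left of the wild type (WT) for each sugar. PDE_06899 is high only in the 3 deletion libraries on GlcNAc, and PDE_07106 is lowest there and highest in the 3 wild-type libraries on GlcNAc.

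Of the 13 locus tags whose names are known from published work on strain 114-2, 5 were higher in the interaction, 1 was lower and 7 were not called, beside 15.1% higher and 10.7% lower over all genes tested. Of these 13, amy15A alone had responses called in opposite directions. This gene (PDE_01201), which encodes a secreted glucoamylase that releases glucose from starch, had 239, 148 and 155 FPKM in the deletion on GlcNAc, against 47.0, 47.2 and 48.3 FPKM in the wild type on GlcNAc. On glucose it had 74.0, 73.7 and 58.2 FPKM in the deletion, against 98.5, 111 and 200 FPKM in the wild type. No groups overlapped within a sugar or within a genotype: amy15A rose on GlcNAc in the deletion (1.36) and fell in the wild type (-1.43), an interaction of 2.79 (SE 0.36, limma adjusted p = 0.000152; 2.48 to 2.99 when 1 library was left out). amyR (PDE_03964), the gene of the activator of amylase genes, fell on GlcNAc in both genotypes, with responses of -3.10 in the deletion and -3.29 in the wild type, and its interaction of 0.19 was not called (SE 0.33, limma adjusted p = 0.669).

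The cellulase genes were low on both sugars, and all 4 interactions were above 0. PDE_07945 (cel7A-2), which encodes a major cellobiohydrolase, was a gained induction: it had 9.87, 9.80 and 7.67 FPKM in the deletion on GlcNAc against 1.85, 2.78 and 2.82 FPKM in the wild type on GlcNAc, while the glucose libraries overlapped at 3.52, 6.51 and 2.72 FPKM in the deletion and 2.90, 4.05 and 2.68 FPKM in the wild type. Its response was 1.004 in the deletion, only just over the fold threshold, and -0.27 in the wild type, where it was not called. Its interaction was 1.28 (SE 0.36, limma adjusted p = 0.0141) and fell below the fold threshold with an offset of 5 FPKM (0.76). The endoglucanase gene cel5B (PDE_09226) had an interaction of 0.85, the cellobiohydrolase gene cel6A (PDE_07124) of 0.81 and the endoglucanase gene cel7B (PDE_07929) of 0.69. Under limma these 3 passed the adjusted p (0.00387, 0.0238 and 0.0205) but missed the fold threshold. The limma adjusted p of PDE_07124 was 0.0650 with median-ratio scaling and 0.0742 with quantile normalization, and that of PDE_07929 was 0.0680 and 0.0977. For PDE_07124 it also passed 0.05 without deletion glucose replicate 2 or 3, wild-type glucose replicate 1 or wild-type GlcNAc replicate 3, reaching 0.0548 at most. The median interaction of the 4 was 0.83, beside 0.17 over all genes.

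The deletion on GlcNAc lay above the other groups for cel5B, with 11.4, 11.9 and 13.5 FPKM against 6.68, 6.43 and 5.67 FPKM in the wild type on GlcNAc. cel6A differed from cel5B in which group stood apart: it had 11.2, 9.81 and 12.5 FPKM in the deletion on GlcNAc and 5.83, 4.75 and 3.44 FPKM in the wild type on GlcNAc, while glucose held 13.9, 10.6 and 11.2 FPKM in the deletion and 11.1, 9.05 and 8.24 FPKM in the wild type. For cel6A it was thus the wild type on GlcNAc that lay below all 9 other libraries.

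The 2 β-glucosidase genes behaved differently. bgl2 (PDE_00579) was a gained repression that came from the glucose side. It had 26.2, 33.2 and 20.1 FPKM in the deletion on glucose against 7.49, 7.28 and 8.37 FPKM in the wild type on glucose, whereas on GlcNAc it had 11.02, 9.19 and 11.4 FPKM in the deletion and 11.4, 9.90 and 10.6 FPKM in the wild type, which overlapped. The interaction was -1.65 (SE 0.23, limma adjusted p = 0.000261). For bgl1 (PDE_02736) the response was -0.998 in the deletion and -1.01 in the wild type, and the interaction was 0.01 (SE 0.17, limma adjusted p = 0.957). The xylanase gene xyn10A (PDE_08094), at 1.82 to 3.27 FPKM throughout, had an interaction of 0.05 (SE 0.21, limma adjusted p = 0.865).

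Among regulators, creA (PDE_03168), the gene of the carbon catabolite repressor, was a lost repression. It had 324, 345 and 268 FPKM in the deletion on GlcNAc and 166, 145 and 149 FPKM in the wild type on GlcNAc, without overlap. On glucose it overlapped at 503, 351 and 409 FPKM in the deletion and 468, 477 and 431 FPKM in the wild type. The response was -0.42 in the deletion and -1.57 in the wild type. That of the deletion missed the fold threshold but passed the adjusted p (limma, 0.0220), without overlap between its sugars. The interaction was 1.15 (SE 0.20, limma adjusted p = 0.000952), and median-ratio scaling took it to 0.97, under the fold threshold.

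xlnR (PDE_07674), the gene of an activator of xylanase and cellulase genes, had 27.2, 23.2 and 19.5 FPKM in the deletion on GlcNAc against 11.8, 11.97 and 10.2 FPKM in the wild type on GlcNAc, and its glucose libraries overlapped. Its interaction of 1.03 (SE 0.22, limma adjusted p = 0.00301) lay at the threshold and fell short of it under median-ratio scaling (0.86), quantile normalization (0.89), an offset of 5 FPKM (0.84) and without deletion glucose replicate 3 (0.92), wild-type glucose replicate 3 (0.97), deletion GlcNAc replicate 1 (0.92) or wild-type GlcNAc replicate 3 (0.96). clrB (PDE_05999), the gene of a cellulase activator, fell on GlcNAc in both genotypes, by 1.67 in the deletion and by 2.07 in the wild type on the log2 scale, and its interaction of 0.40 was not called (SE 0.24, limma adjusted p = 0.200).

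**Figure D3:**
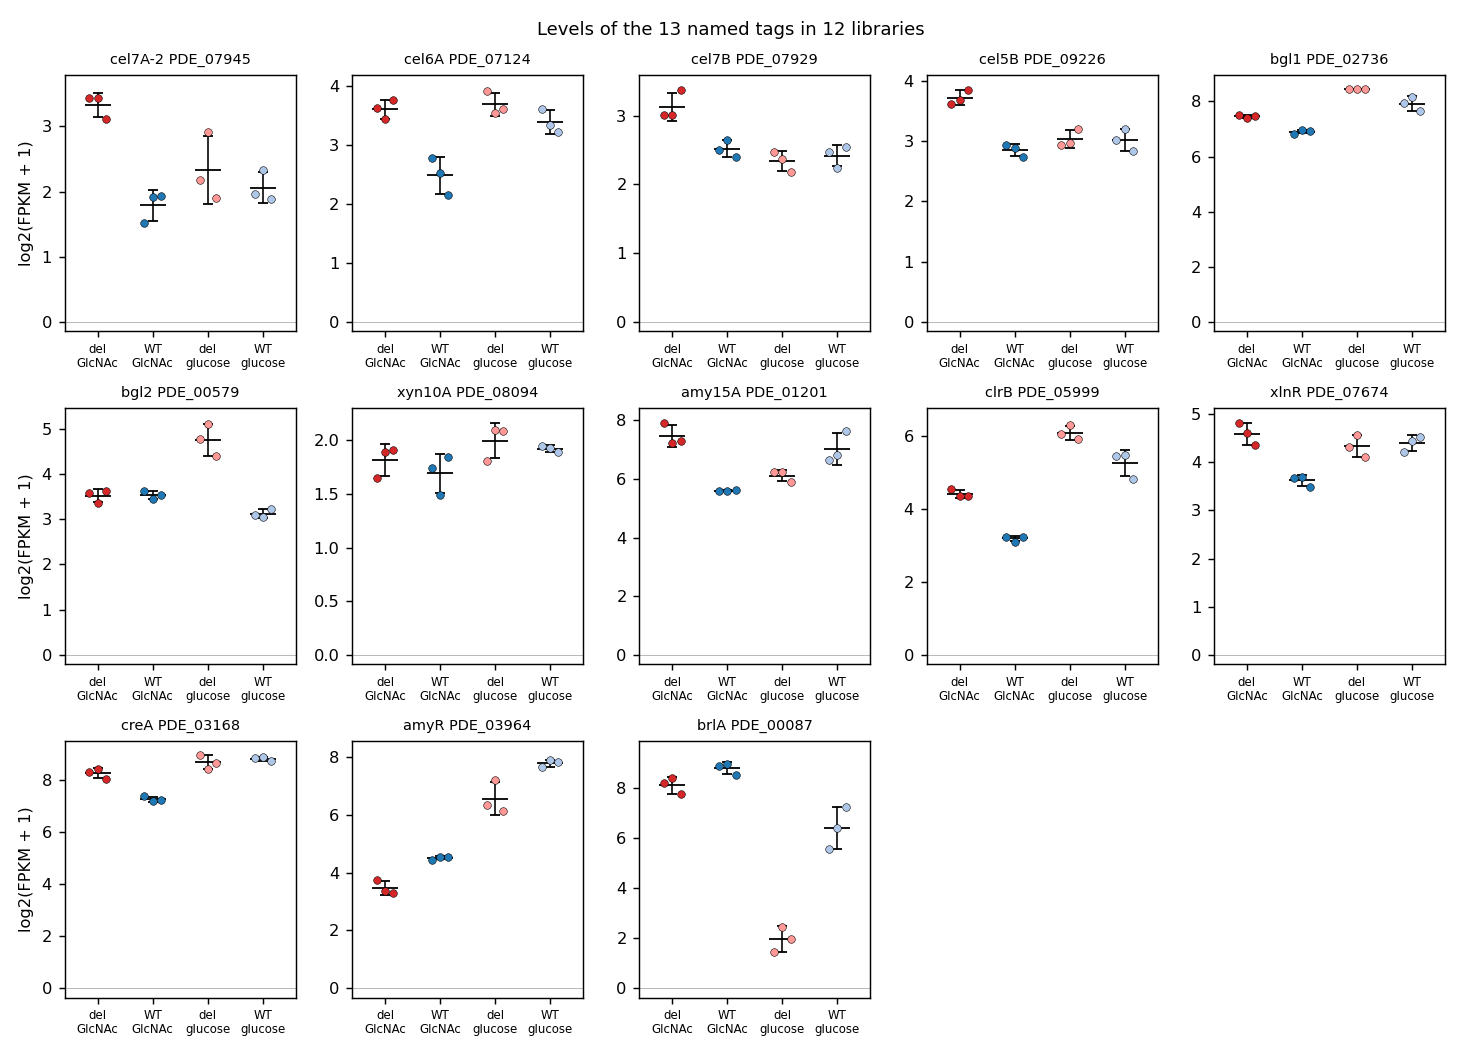
Levels of the 13 named tags in the 12 libraries as log2(FPKM + 1), points for libraries and bars for the mean and SD of 3, with the deletion (del) left of the wild type (WT) for each sugar. amy15A crosses over between the sugars, creA is lowest in the wild type on GlcNAc, bgl2 is highest in the deletion on glucose, and brlA is lowest in the deletion on glucose.

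The largest interaction of the 13 was that of brlA (PDE_00087), the gene of a central regulator of conidiation, and it came from glucose. brlA had 290, 335 and 213 FPKM in the deletion on GlcNAc and 469, 499 and 367 FPKM in the wild type on GlcNAc. On glucose it had 1.72, 4.47 and 2.95 FPKM in the deletion, against 46.0, 83.9 and 150 FPKM in the wild type. It rose on GlcNAc in both genotypes, by 6.15 in the deletion and 2.39 in the wild type on the log2 scale, so the interaction was 3.76 (SE 0.54, limma adjusted p = 0.000314; 3.34 to 4.18 when 1 library was left out). Without the log the sign turns: the deletion minus wild-type difference of mean FPKM changed by -75.2 FPKM between glucose and GlcNAc, both differences being below 0.

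brlA belongs to the stronger inductions. The 155 genes of this class had a median mean level of 115 FPKM in the deletion and 134 FPKM in the wild type on GlcNAc, but of 1.29 FPKM in the deletion and 31.4 FPKM in the wild type on glucose. The genotype difference was called on glucose for 112 of the 155 and on GlcNAc for 66. Over all genes tested it was called for 10.6% on glucose and 27.4% on GlcNAc, but the class was formed from these same values. Of the class members called on both sugars, 31 had the same sign and 3 the opposite. In 67 of the 155 the difference of differences had the opposite sign without the log, against 119 of all 2140 called genes.

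The wild-type libraries on glucose differed among themselves for these genes. Of the 155, 120 (77.4%) had their lowest wild-type glucose level in replicate 1 and their highest in replicate 3, as brlA did, against 27.6% of all genes tested. The order was also held by 47.6% of weaker inductions, 43.8% of lost inductions and 37.7% of genes induced in the wild type and repressed in the deletion. In the other response classes its share ran from 4.58% to 23.6%. The median ratio of the highest to the lowest of these 3 libraries, on FPKM + 1, was 3.22 for the stronger inductions and 1.26 over all genes. What this spread contributes to the classes was not tested beyond leaving libraries out. Without wild-type glucose replicate 1 there were 174 stronger inductions, and without replicate 3 there were 151. Lost inductions numbered 192 with all libraries, 172 without wild-type glucose replicate 1 and 261 without replicate 3. All responses lost numbered 476, 433 and 595 in the same order.

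In both lost classes and among gained inductions, most genes differed between genotypes on GlcNAc and not on glucose. The genotype difference was called on GlcNAc and not on glucose for 150 of 192 lost inductions, 219 of 284 lost repressions and 304 of 416 gained inductions. Gained repressions were more mixed, with 174 called on GlcNAc only, 84 on glucose only, and on both with opposite sign for 21 and with the same sign for 14. Stronger repressions were mixed too, with 70 of 166 called on GlcNAc only, 51 on glucose only and 31 on neither. Over all genes tested the genotype difference was called for 27.4% on GlcNAc (16.7% higher, 10.7% lower) and 10.6% on glucose (4.67% higher, 5.91% lower). Of these 8290 genes it was called on GlcNAc only for 1870, on glucose only for 479, and on both with opposite sign for 71. The interaction also equals the genotype difference on GlcNAc minus that on glucose. The counts per class therefore come from the values that chose the genes, and only describe them. Of the 53 genes induced in the wild type and repressed in the deletion, 17 had called genotype differences of opposite sign on the 2 sugars, as did 8 of the 49 that reversed the other way.

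Genes with called interactions often carried neighbouring locus numbers. Of the higher PDE_ tags whose next number was also tested, 26.6% were followed by another higher tag (272 of 1021), beside 15.1% of all genes that were higher. Of the lower ones, 23.4% were followed by another lower tag (168 of 718), beside 10.7%. Runs of 3 or more consecutive numbers called in 1 direction held 180 higher genes in 50 runs and 108 lower genes in 31 runs. Whether consecutive numbers are neighbours on a chromosome was not read from an annotation, and neighbouring genes may share transcripts that the counting divides.

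The longest run was PDE_09999 to PDE_10010, with 12 tags of which 11 were stronger inductions. Group means over its tags ran from 17.5 to 263 FPKM in the deletion and from 2.21 to 606 FPKM in the wild type on GlcNAc, and from 0 to 2.08 FPKM in the deletion and from 3.18 to 95.8 FPKM in the wild type on glucose. All 12 genotype differences were called on glucose (-6.08 to -1.74) and 3 on GlcNAc. The member of greatest interaction, PDE_10000, was the exception among the 12. On GlcNAc it had 19.2, 13.05 and 20.2 FPKM in the deletion against 0, 0 and 6.62 FPKM in the wild type. On glucose it had 0, 0 and 1.22 FPKM in the deletion against 6.05, 11.7 and 17.1 FPKM in the wild type. By its calls it reversed (interaction 6.38, SE 1.00, limma adjusted p = 0.000532). Its wild-type libraries overlapped between the sugars at low levels, however, unlike those of the reversals named above.

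The runs PDE_00803 to PDE_00809 (7 tags) and PDE_00794 to PDE_00799 (6 tags) lie 3 numbers apart and were stronger inductions throughout. PDE_00806 had 557, 466 and 633 FPKM in the deletion on GlcNAc, below the 2291, 2079 and 2396 FPKM of the wild type. On glucose it had 1.04, 1.29 and 1.04 FPKM in the deletion, against 144, 447 and 813 FPKM in the wild type (interaction 5.43, SE 0.66, limma adjusted p = 9.89e-05). PDE_00798 had 235, 190 and 260 FPKM in the deletion on GlcNAc against 723, 711 and 884 FPKM in the wild type, and 0.21, 0.03 and 0.02 FPKM in the deletion on glucose against 52.8, 170 and 323 FPKM in the wild type (interaction 5.30, SE 0.69, limma adjusted p = 0.00016). In these runs the mean of the deletion was below that of the wild type on both sugars, and further below on glucose on the log2 scale. On glucose the genotype difference was called for all tags of both runs. On GlcNAc it was called for 4 of the 7 tags (-2.92 to -0.66 over the run) and for 5 of the 6 (-2.48 to -1.20). All 25 tags of the 3 runs had the order of wild-type glucose libraries seen for brlA.

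PDE_04024 to PDE_04029 made up 1 of the 2 longest runs of lower interactions, 6 gained repressions whose genotype difference was called on glucose and not on GlcNAc. PDE_04028 had 1.27, 0.82 and 0.79 FPKM in the deletion and 0.45, 0.56 and 0.72 FPKM in the wild type on GlcNAc. On glucose it had 35.0, 51.3 and 45.6 FPKM in the deletion against 1.02, 0.78 and 0.70 FPKM in the wild type (interaction -4.30, SE 0.24, limma adjusted p = 6.76e-07). The genotype difference was called on glucose for all 6 (2.63 to 4.61) and on GlcNAc for 0 of 6 (-0.26 to 0.39). On bran and cellulose the differences of the 6 ran from -1.19 to -0.60, below 0, and 1 of them was called.

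**Figure D4:**
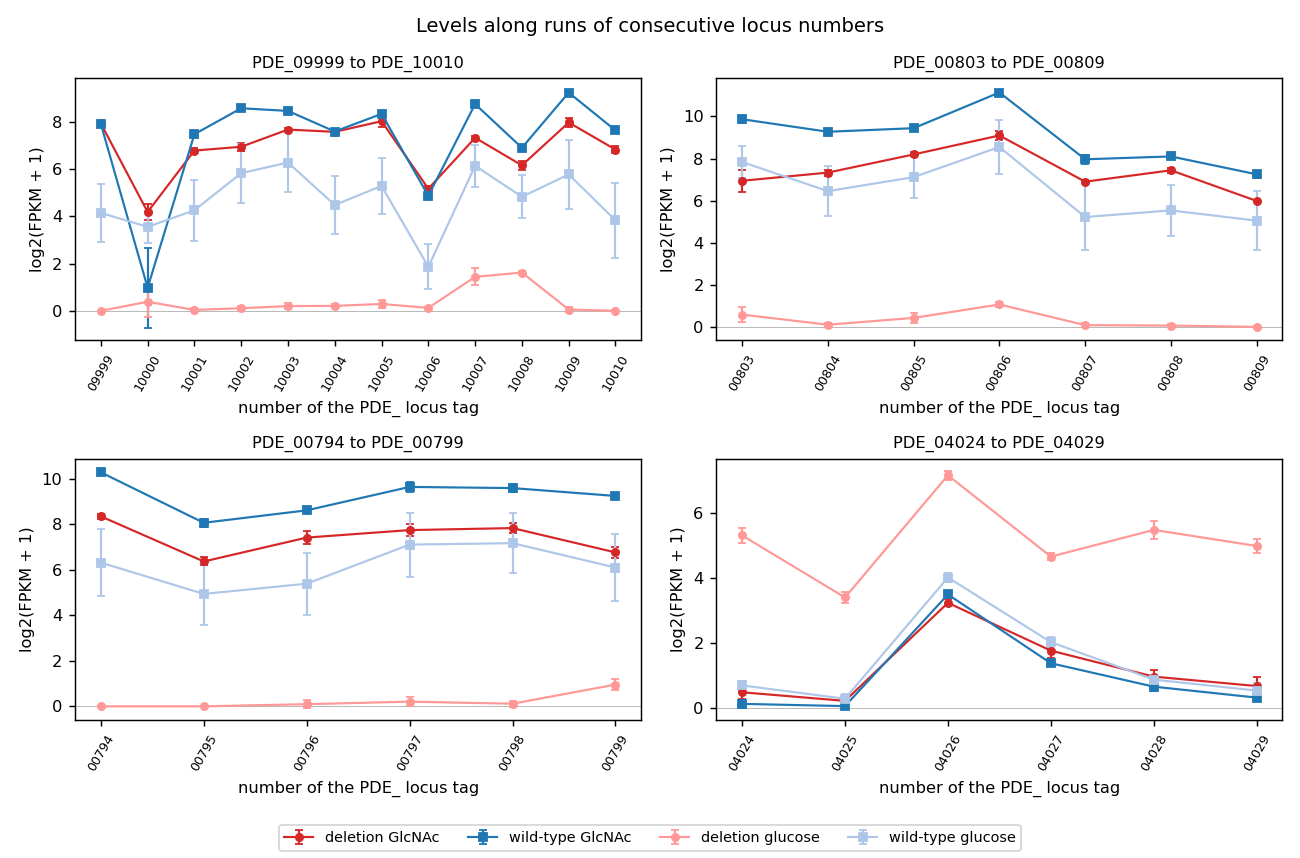
Mean level, log2(FPKM + 1), with SD of 3 libraries, along 4 runs of consecutive locus numbers, for the deletion (red) and the wild type (blue) on GlcNAc (dark) and glucose (pale). In the 3 runs of higher interactions the deletion on glucose lies near 0 while the wild type on glucose lies well above it with wide SD; in PDE_04024 to PDE_04029 the deletion on glucose lies above the other 3 groups.

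A further stretch, PDE_00963 to PDE_00970, was chosen after its values were seen, because earlier results on these data had shown some of its tags to be low in the deletion. All 7 of its tested tags had a called interaction, 4 lower and 3 higher, beside 25.8% of all genes tested, and both directions occurred at adjacent numbers, as at PDE_00963 and PDE_00964. PDE_00965 had 34.7, 47.2 and 36.2 FPKM in the deletion on GlcNAc against 4197, 4532 and 4498 FPKM in the wild type on GlcNAc, and 15.6, 12.1 and 12.2 FPKM in the deletion on glucose against 53.8, 50.2 and 51.2 FPKM in the wild type on glucose (interaction -4.89, SE 0.18, limma adjusted p = 8.22e-08). PDE_00964, at 55.0, 57.5 and 39.4 FPKM in the deletion and 449, 507 and 486 FPKM in the wild type on GlcNAc, was a lost induction with close levels on glucose (interaction -3.03). PDE_00970 was also a lost induction (interaction -3.28). It had 4.52, 4.55 and 3.81 FPKM in the deletion on GlcNAc and 2.11, 2.84 and 2.38 FPKM in the deletion on glucose. The wild type had 705, 732 and 686 FPKM on GlcNAc and 44.8, 47.7 and 46.4 FPKM on glucose. In the deletion both lost inductions kept a response under the fold threshold, of 0.61 for PDE_00964 and 0.62 for PDE_00970. The limma adjusted p-values of these responses were 0.00277 and 0.000279.

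PDE_00969 kept most of its response on the log2 scale although its level in the deletion was low. It had 75.9, 92.4 and 62.2 FPKM in the deletion on GlcNAc and 2.22, 2.99 and 2.62 FPKM in the deletion on glucose, against 3652, 4007 and 3801 FPKM in the wild type on GlcNAc and 52.9, 51.9 and 58.6 FPKM in the wild type on glucose. The response was 4.42 in the deletion and 6.11 in the wild type, a weaker induction (interaction -1.69, SE 0.19, limma adjusted p = 7.4e-05). PDE_00963 and PDE_00966 were gained inductions with interactions of 3.33 and 2.56. PDE_00963 had 120, 112 and 105 FPKM in the deletion on GlcNAc and 16.3, 16.6 and 9.26 FPKM in the wild type on GlcNAc. Its glucose levels overlapped between genotypes.

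By contrast, the stretch PDE_09234 to PDE_09243, also chosen after its values were seen, held large genotype differences on both sugars. Its interaction was called for 4 of 10 tags and not for 6, beside 25.8% of all genes tested, with values from -1.12 to 3.34. The deletion was below the wild type on both sugars for each tag but PDE_09243, which had 59.7, 50.05 and 41.1 FPKM in the deletion on GlcNAc and 45.05, 56.8 and 36.3 FPKM in the deletion on glucose and was listed at 0 in the wild type on both. On bran and cellulose the differences of the 10 ran from -0.10 to 0.27, with a lowest limma adjusted p of 0.272. PDE_09239 had 5.23, 0 and 13.5 FPKM in the deletion and 3409, 2980 and 3684 FPKM in the wild type on GlcNAc, and 3.16, 4.74 and 4.15 FPKM in the deletion and 6024, 6381 and 7402 FPKM in the wild type on glucose. Its interaction was 0.83 (SE 1.01, limma adjusted p = 0.534), an SE too wide to show that the responses were alike.

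The 6 libraries grown on 1% bran and 1% microcrystalline cellulose were not used to form the classes. On that medium few genes differed between the genotypes, in the classes as over all genes tested. Over all genes tested 23 differed between deletion and wild type on that medium, 0.277% (0.145% higher, 0.133% lower), with a median difference of 0.00. Among the 192 lost inductions 4 were lower in the deletion (2.08%) and 0 were higher, with a median difference of -0.07. These were PDE_00970, PDE_01168, PDE_03366 and PDE_08880, named because they are few and chosen after their values were seen. PDE_01168 had 0.780 ± 0.551 FPKM in the deletion and 17.98 ± 0.879 FPKM in the wild type on bran and cellulose, and PDE_08880 had 67.2 ± 9.96 FPKM in the deletion and 166 ± 6.64 FPKM in the wild type there (SD, n = 3 each; limma adjusted p = 0.0112 and 0.0219). Of the 21 weaker inductions 2 were lower (9.52%), PDE_00965 and PDE_00969, and the class median was -0.27. Of the 166 stronger repressions 3 were higher in the deletion (1.81%), PDE_01983, PDE_05379 and PDE_07933. Of the 416 gained inductions and of the 155 stronger inductions 0 were called on this medium by limma. With 0.277% called over all genes tested, these 0 counts say little about the 2 classes.

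The stronger inductions, nearly silent in the deletion on glucose, were expressed in both genotypes on bran and cellulose, at a median mean level of 91.0 FPKM in the deletion and 83.2 FPKM in the wild type. Genes induced in the wild type and repressed in the deletion had a median there of 29.6 FPKM in the deletion and 32.4 FPKM in the wild type. Their medians were 8.34 FPKM in the deletion and 144 FPKM in the wild type on GlcNAc, and 53.2 and 49.3 FPKM on glucose. Genes that reversed the other way had a median of 34.8 FPKM in the deletion and 26.2 FPKM in the wild type on bran and cellulose. Their medians were 109 FPKM in the deletion and 5.72 FPKM in the wild type on GlcNAc, and 21.9 and 40.6 FPKM on glucose. Both classes were formed from GlcNAc and glucose levels, so medians lying between those of the genotypes on GlcNAc are no separate result.

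**Figure D5:**
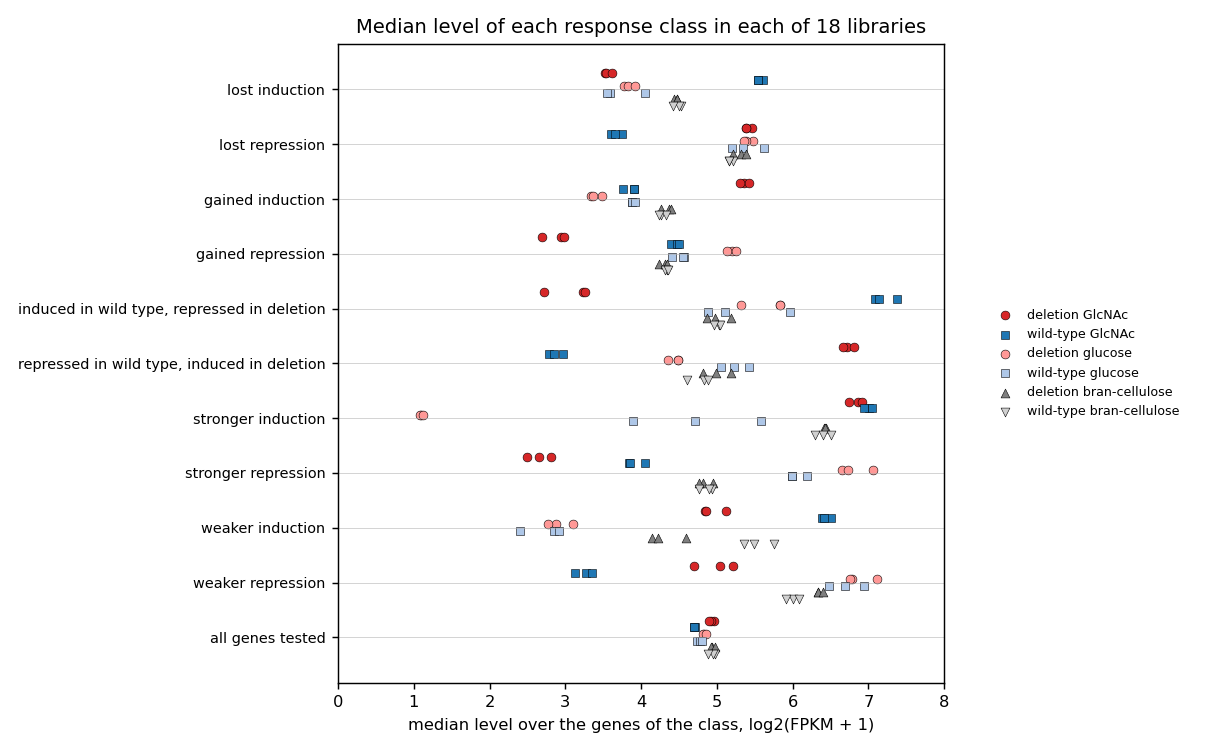
Median level over the genes of each response class, log2(FPKM + 1), in each of the 18 libraries, 3 per group; the bran-cellulose libraries (grey triangles) took no part in forming the classes. On bran-cellulose the deletion and wild-type libraries lie close together in most classes, while the stronger inductions lie near 1.1 in the deletion on glucose and spread from 3.90 to 5.58 in the wild type on glucose.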

How the data were processed

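RNA from mycelium was profiled, per the labels' protocols, with oligo(dT) selection and tag libraries cut by NlaIII and MmeI. The authors deposited FPKM values for 9261 identifiers, per the file headers; how fragments were aligned and counted, and on which build, is not given in the sources used here. Division by length is fixed for a gene but sets its size relative to the offset. Low values gave no whole read counts, so the depth is unknown and no count test was run. The reference gene table, of assembly ASM172317v3, matched 0 identifiers.

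limma 3.58.1 in R 4.3.3 was fitted to log2(FPKM + 1) of 12 libraries with 1 mean per group and an intensity trend in the prior; 971 identifiers under the filter were left out. The 6 bran-cellulose libraries were fitted alone. Named genes were the 13 tags, whose names are recalled from published work; the 2 called genes of greatest interaction per class (2 over all same-direction classes) with a group mean of at least 10 FPKM and no overlap in called responses; and the top gene of the 4 longest runs of called tags, ties going to the greater mean size. The members and lists were chosen with earlier results of these data known. On simulated data of 8290 genes, 88% of 4-fold and 31% of 2-fold interactions were called, with 4 false calls among 8090 unchanged genes. Only 100 genes were changed at each fold, all picked above a minimum mean level. Noise was normal, and every other gene had the same mean in all groups. Many more genes were called in the data, so these rates do not carry over to the reported calls. Alternatives covered offset, filter, scaling, weights, thresholds, libraries and a replicate block. Figures used matplotlib 3.10.9.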

Additional observations from a re-analysis of the deposited data

Results flagged for a closer look

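The interaction tests whether an effect differs between 2 groups, so each called gene named in the report counts here, as do the totals of 1249 higher and 891 lower genes. Among named tags the log2 interactions were 1.28 for cel7A-2 (PDE_07945), -1.65 for bgl2 (PDE_00579), 2.79 for amy15A (PDE_01201), 1.03 for xlnR (PDE_07674), 1.15 for creA (PDE_03168) and 3.76 for brlA (PDE_00087). For lost responses the interactions were -5.95 for PDE_00449, -5.74 for PDE_06444, 5.77 for PDE_02787 and 5.10 for PDE_04964. For gained responses the interactions were 11.44 for PDE_01100, 7.85 for PDE_06899, -8.79 for PDE_02095 and -7.47 for PDE_01384. For reversed responses the interactions were -8.11 for PDE_07106, -7.84 for PDE_06443, 11.24 for PDE_00192 and 9.81 for PDE_07475. For same-direction responses of changed size the interactions were -9.72 for PDE_06802 and -8.05 for PDE_07282. The leading genes of runs were at 6.38 for PDE_10000, 5.43 for PDE_00806, 5.30 for PDE_00798 and -4.30 for PDE_04028.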

How the results depend on the processing

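Of 31 named genes, 20 kept direction and side of the threshold under each alternative run for them, 25 for most and 24 for PDE_00192, PDE_00449, PDE_01100 and PDE_02095. Leaving out 1 library gave 1186 to 1319 for interaction higher, 824 to 949 for interaction lower, 433 to 595 responses lost, 718 to 826 responses gained, 88 to 113 responses reversed and 352 to 406 for responses same direction, different size; 995 of 1249 higher and 712 of 891 lower genes stayed called whichever library was left out, but only 776 and 555 also kept their class, among them 34 of 53 genes induced in the wild type and repressed in the deletion and 31 of 49 that reversed the other way. Array weights gave 43 weaker inductions. Without the fold threshold the counts were 2277 for interaction higher, 1418 for interaction lower, 872 responses lost, 1159 responses gained, 621 responses reversed and 988 responses same direction, different size. With a fold threshold of 2 they were 406, 385, 140, 331, 20 and 122. An offset of 5 FPKM left 64 responses reversed, and requiring the other genotype's response to be under 0.5 left 299 responses lost and 483 responses gained. Array weights, which ran from 0.258 to 14.7, gave 1508 for interaction higher and 1042 for interaction lower. Leaving out genes listed at 0 beside at least 10 FPKM, an alternative chosen after seeing the data, gave 1241 and 887.

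Small uncalled interactions changed sign. PDE_02736 (bgl1) was at -0.17 under median-ratio scaling and -0.18 under quantile normalization, and between -0.12 and 0.15 when 1 library was left out. PDE_08094 (xyn10A) was at -0.075, -0.16 and -0.039 under median-ratio scaling, quantile normalization and array weights, and between -0.047 and 0.14 when 1 library was left out. PDE_03964 (amyR) was between -0.025 and 0.50 when 1 library was left out. The cause was not tested. Replicate numbers gave 18 same-number pairs of libraries, whose deviations correlated at -0.17 to 0.29, over 0.1 in 3 pairs. Pairs that differed in number and group ran from -0.38 to 0.28. With 3 libraries per group this check cannot say whether the numbers pair the samples. The replicate block gave 1250 for interaction higher and 894 for interaction lower. It gave 477 responses lost, 757 responses gained, 102 responses reversed and 405 responses same direction, different size.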
